A study of Sus scrofa with 30 samples.

Results

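The genes described here are 10 components and targets of the Hippo pathway in single pig embryos. They were taken by symbol (YAP1, WWTR1, TEAD1, TEAD3, TEAD4, LATS1, LATS2, AMOTL2, CYR61 and CTGF) and matched to the NCBI gene identifiers of the count table. All 10 were among the 13103 genes of the table of all embryos, and all 10 were in the separate table of each day. RNA was sequenced from 30 whole embryos, 5 female and 5 male on each of Days 8, 10 and 12 after insemination, a period in which the pig blastocyst grows from a sphere into a long filament. All groups were embryos flushed from the uterus of inseminated gilts, with 4 gilts slaughtered per day. The gilts were German Landrace × Pietrain crosses. Before insemination all of them had been synchronized with altrenogest, followed by PMSG and human chorionic gonadotropin, and no group had a further treatment. The study used semen of a single Pietrain boar. It took at least 1 female and 1 male embryo from a sow, so some embryos of a day were littermates. The labels do not give the gilt of an embryo, and litter therefore entered no test.

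In the Hippo pathway, the kinases LATS1 and LATS2 phosphorylate the coactivators YAP1 and WWTR1 (TAZ), which keeps them in the cytoplasm and favours their degradation. Coactivators that escape this step enter the nucleus and bind DNA through the TEAD transcription factors, which have no activating domain of their own. In the mammalian blastocyst, outer cells with nuclear YAP1 and active TEAD4 become trophectoderm, while junctional scaffolds of the angiomotin family help to retain YAP1 in the cytoplasm of inner cells. CTGF, CYR61 and AMOTL2 are classical transcriptional targets of YAP1 and TEAD. Phosphorylation and location of these proteins are not visible in mRNA counts.

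Total counts ran from 6068212 to 34002508 per embryo. Each of the 10 genes had at least 30 counts in every embryo. The Day 12 female d12_f_245 was the smallest library. Libraries of each day that stood farthest from the others in log2 CPM (library-scaled counts with TMM factors) were the males d08_m_103 and d08_m_136 on Day 8, the female d10_f_454 and the male d10_m_453 on Day 10, and the females d12_f_245 and d12_f_271 on Day 12. Differentially expressed genes (DEG) between days had a false discovery rate (FDR, Benjamini-Hochberg) under 0.001 in edgeR's quasi-likelihood test and a log2 fold change beyond 1. Genes under an FDR of 0.05 at any fold are also given, and "rose" and "fell" are used for changes that passed at least that test.

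Cell type markers moved with day. The summed level of the 5 epiblast markers was 130.3 to 203 CPM on Day 8, 107 to 169 CPM on Day 10 and 11.7 to 153 CPM on Day 12, when SOX2, NANOG and PRDM14 stood at 3 counts or fewer in all 10 embryos. All 8 trophectoderm markers were measured, with sums of 21620 to 26532 CPM on Day 8, 36269 to 53794 CPM on Day 10 and 11346 to 34761 CPM on Day 12. Their members went both ways, with 2 higher and 0 lower as DEG from Day 8 to 10 (median log2 fold change 0.07) and 2 higher and 3 lower from Day 10 to 12 (median 0.16), so the sums follow the most abundant of them. The 6 hypoblast markers summed to 278 to 411 CPM, 146 to 196 CPM and 169 to 1247 CPM. Of 8 mesoderm markers 4 were measured. Their sum went from 2.21 to 5.43 CPM on Day 8 to 23.8 to 179.7 CPM on Day 10 and 589 to 1854 CPM on Day 12. Nearly all of it was HAND1 on Days 10 and 12. On Day 8 most of it was EOMES, with a mean of 2.38 CPM beside a median sum of 2.98 CPM. From Day 10 to 12, 1 of these 4 rose and 2 fell as DEG, with a median log2 fold change of -1.57. Markers of maternal endometrium were low, with 3 of 6 measured and a summed level of at most 10.7 CPM in any embryo, and of 7 blood markers 2 were measured with a summed level of at most 10.6 CPM. On Day 12, male d12_m_307 had the highest epiblast sum, within the Day 10 range, and the lowest mesoderm sum. The next highest epiblast sum of that day was 66.7 CPM in male d12_m_249. Male d12_m_307 also had the highest Day 12 levels of TEAD1, TEAD4, AMOTL2, CYR61 and CTGF. Embryos were sequenced whole, so a smaller share of cells of one type and less RNA per cell cannot be told apart. The part of these marker shifts in the levels and changes below was not tested.

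The 10 genes did not move as a block. Between Days 8 and 10, AMOTL2 was the only DEG among them, against 14.1% of all genes tested, and 5 of 10 rose at an FDR under 0.05 (TEAD1, TEAD3, LATS2, AMOTL2 and CTGF), with none lower, against 29.4% of all genes higher and 26.7% lower (56.1% in all). Between Days 10 and 12, WWTR1 rose and TEAD4 fell as DEG, against 23.3% of all genes. At an FDR under 0.05, 6 of 10 passed in that interval, with WWTR1 and CTGF higher and TEAD1, TEAD3, TEAD4 and AMOTL2 lower, against 32.6% of all genes higher and 27.1% lower (59.7% in all). These splits depended on the scaling. With library size as the only scaling, which moved the median log2 fold change of all genes to -0.15 and 0.24 in the 2 intervals, AMOTL2 and LATS2 were higher and LATS1, TEAD4 and YAP1 lower between Days 8 and 10, beside 21.3% of all genes higher and 36.8% lower. Between Days 10 and 12, 5 genes (WWTR1, CTGF, LATS1, LATS2 and CYR61) were then higher and 2 (TEAD1 and TEAD4) lower, beside 43.8% and 17.5% of all genes. None of the 10 was without overlap between Days 10 and 12, against 16.6% of all genes. Over the whole period, from Day 8 to Day 12, TEAD4 and CTGF were DEG, against 32.5% of all genes, and 7 of 10 had an FDR under 0.05, 5 higher and 2 lower, against 40.1% and 33.3% of all genes (73.3% in all). The median log2 fold change of the 10 genes was 0.34 between Days 8 and 10, 0.02 between Days 10 and 12 and 0.28 between Days 8 and 12, beside medians of 0.03, 0.04 and 0.09 over all genes. The 3 contrasts share embryos and are given side by side.

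**Figure D1:**
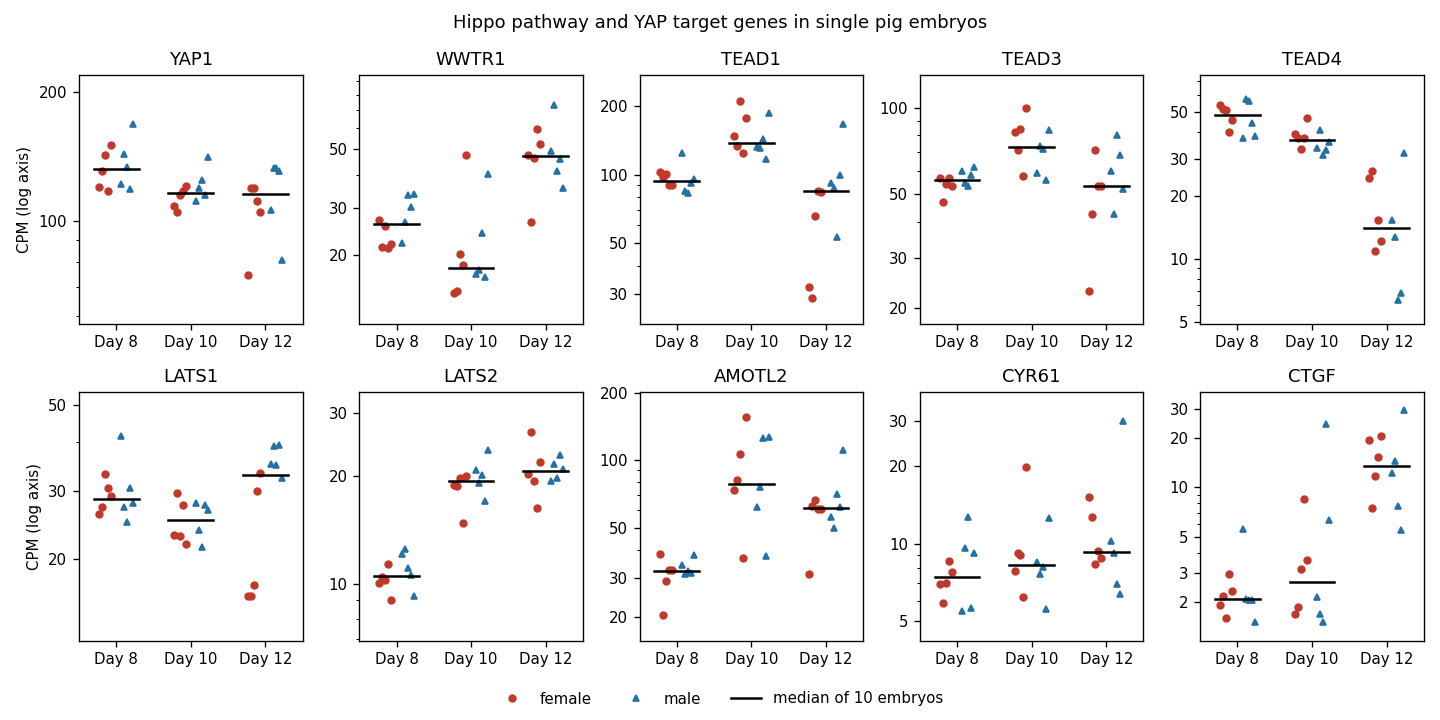
Level of each of the 10 genes in every embryo, in CPM on a log axis, by day, with female embryos as circles, male embryos as triangles and the median of the 10 embryos of a day as a line. YAP1 stayed between 74.8 and 169 CPM, LATS2 on Day 10 stood above every Day 8 embryo, TEAD4 on Day 12 stood below every Day 8 embryo, and CTGF on Day 10 ran from 1.52 to 24.4 CPM.

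Of the coactivators, YAP1 changed less than WWTR1. YAP1 had 118 to 169 CPM on Day 8 with a median of 132, 104.9 to 141 CPM on Day 10 with a median of 116, and 74.8 to 132.9 CPM on Day 12 with a median of 115. Ranges of all days overlapped, and the highest embryo of a day held at most 1.78 times the lowest. The log2 fold change was -0.19 ± 0.09 (SE) from Day 8 to 10, with an edgeR FDR of 0.074, and -0.08 ± 0.09 from Day 10 to 12, with an FDR of 0.471 and a 95% interval of -0.27 to 0.11. YAP1 fell over the whole period, by 0.27 on the log2 scale (FDR 0.0090), though not past the threshold in males alone (-0.23, FDR 0.150). The lowest Day 12 values were 74.8 CPM in female d12_f_245 and 81.1 CPM in male d12_m_307. With library size as the only scaling the change from Day 8 to 10 was -0.38 (FDR 3.2e-04) and that from Day 10 to 12 turned to 0.11. The first also passed an FDR of 0.05 with only the 2 days in the fit (FDR 0.0165), without the 2 farthest embryos of each day (FDR 0.0344), without the Day 10 male d10_m_453 (FDR 0.0423) and without the Day 12 female d12_f_245 (FDR 0.0391).

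WWTR1 had 21.1 to 33.9 CPM on Day 8 with a median of 26.2, 14.3 to 47.6 CPM on Day 10 with a median of 17.9, and 26.6 to 73.2 CPM on Day 12 with a median of 46.9. The Day 10 range was set by 2 embryos, female d10_f_454 with 47.6 CPM and male d10_m_453 with 40.4 CPM, while the other 8 lay between 14.3 and 24.1 CPM. With all embryos the log2 fold change from Day 8 to 10 was -0.19 ± 0.20 (edgeR FDR 0.409). It passed an FDR of 0.05 with the robust GLM (-0.45) and without the 2 farthest embryos of each day (-0.54). Between Days 10 and 12, WWTR1 rose 2.07-fold (log2 fold change 1.05 ± 0.20, FDR 3.1e-05). Its change lay close to the 2-fold threshold, at 0.99 without the Day 10 female d10_f_315 or d10_f_317 and at 0.96 without the Day 12 male d12_m_275, and in females alone and in males alone it was 0.93 and 1.09 with an FDR above 0.001. Against Day 8 the rise was 1.81-fold (0.86 ± 0.20, FDR 2.6e-04).

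Within an embryo, WWTR1 and YAP1 therefore changed in ratio. The ratio of their CPM, which sets no level of one protein against the other, had a median of 0.184 on Day 8 (0.147 to 0.255), 0.154 on Day 10 (0.132 to 0.395) and 0.453 on Day 12 (0.223 to 0.636). The Day 12 embryo with the lowest ratio was female d12_f_271, and the Day 10 embryo with the highest was female d10_f_454.

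The TEAD factors parted over time. TEAD4, the family member required for trophectoderm formation in the mouse, had 37.5 to 57.9 CPM on Day 8 with a median of 48.3, 31.2 to 47.0 CPM on Day 10 with a median of 36.8, and 6.36 to 32.0 CPM on Day 12 with a median of 13.9. Days 8 and 12 did not overlap, as in 31.7% of all genes tested. The log2 fold change of TEAD4 was -0.37 ± 0.20 from Day 8 to 10 (edgeR FDR 0.115), a change that passed an FDR of 0.05 with the robust GLM (-0.37, FDR 0.0176), with library size as the only scaling (-0.55, FDR 0.0243) and with only those 2 days in the fit (-0.37, FDR 0.0011). TEAD4 fell 2.30-fold from Day 10 to 12 (-1.20 ± 0.20, FDR 7.1e-06) and 2.97-fold from Day 8 to 12 (-1.57 ± 0.20, FDR 5.4e-08). With library size as the only scaling the change from Day 10 to 12 was -0.98, under 2-fold, and in males alone it was -1.26 with an FDR above 0.001. The 3 highest Day 12 embryos for TEAD4 were male d12_m_307 with 32.0 CPM, female d12_f_271 with 26.1 CPM and female d12_f_245 with 24.2 CPM, and the other 7 had at most 15.4 CPM. These 3 embryos also held the 3 highest sums of trophectoderm markers on that day, 23618, 34761 and 24002 CPM, against 11346 to 19141 CPM in the other 7, and the part of this in their TEAD4 level was not tested.

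TEAD1 followed another course, with a maximum on Day 10. It had 83.3 to 125 CPM on Day 8 with a median of 94.2, 118 to 212 CPM on Day 10 with a median of 138, and 28.9 to 167 CPM on Day 12 with a median of 84.8. Only the Day 8 male d08_m_103, at 125 CPM, reached into the Day 10 range, whereas Day 12 spread 5.79-fold from female d12_f_271 to male d12_m_307. TEAD1 rose 1.57-fold from Day 8 to 10 (log2 fold change 0.65 ± 0.20, edgeR FDR 0.0065) and fell 1.89-fold from Day 10 to 12 (-0.92 ± 0.20, FDR 2.1e-04). Its level on Day 12 did not differ from Day 8 past the threshold (-0.27 ± 0.20, FDR 0.219). Without the Day 12 male d12_m_307 the fall from Day 10 to 12 was -1.10, past the DEG threshold, and the difference between Days 8 and 12 was -0.46 and passed an FDR of 0.05. With library size as the only scaling the rise was 0.46 and did not pass. In females alone the fall from Day 10 to 12 was -1.51 (FDR 1.7e-04), whereas in males alone it was -0.51 (FDR 0.0807), and the rise from Day 8 to 10 in males was 0.57 (FDR 0.0576). The difference of the fall between the sexes did not pass (edgeR FDR 0.208).

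TEAD3 had 46.8 to 62.2 CPM on Day 8 with a median of 55.8, 56.1 to 100.1 CPM on Day 10 with a median of 72.8, and 23.0 to 80.0 CPM on Day 12 with a median of 53.4. It was also highest on Day 10, but by less than TEAD1. TEAD3 rose 1.33-fold from Day 8 to 10 (log2 fold change 0.41 ± 0.14, edgeR FDR 0.013) and fell 1.35-fold from Day 10 to 12 (-0.43 ± 0.14, FDR 0.0082). The difference between Days 8 and 12 was -0.02, with a 95% interval of -0.31 to 0.26. With library size as the only scaling the changes were 0.22 and -0.24, and neither passed an FDR of 0.05. Without the 2 farthest embryos of each day the fall was -0.21 and did not pass, and in males alone the changes were 0.26 and -0.18 and did not pass either. In females alone the rise was 0.56 and did not pass (edgeR FDR 0.0505).

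The ratio of TEAD4 to TEAD1 CPM within an embryo had a median of 0.507 on Day 8, 0.263 on Day 10 and 0.165 on Day 12. Embryos of Day 12 spread from 0.0684 in male d12_m_286 to 0.904 in female d12_f_271, wider than the 0.158 to 0.312 of Day 10.

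**Figure D2:**
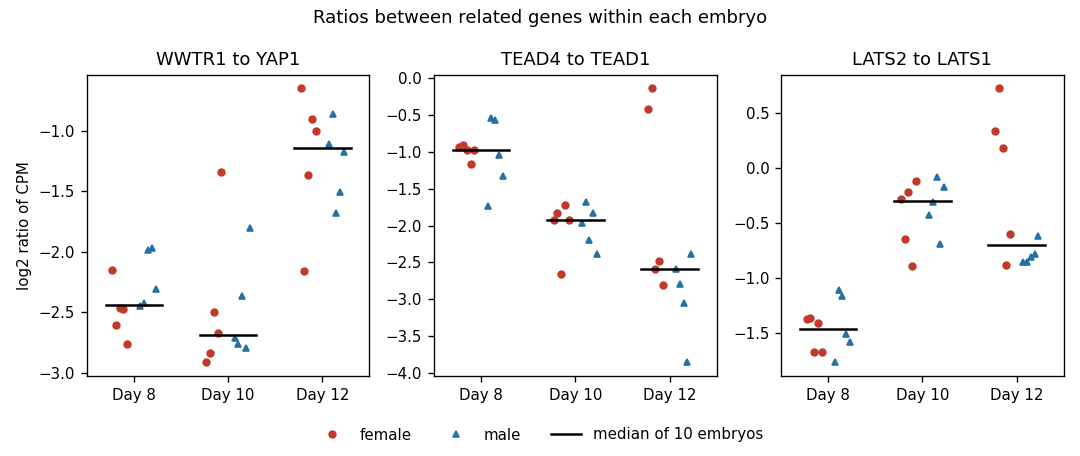
Log2 ratio of the CPM of WWTR1 to YAP1, TEAD4 to TEAD1 and LATS2 to LATS1 in each embryo by day, with female embryos as circles, male embryos as triangles and the median of a day as a line. The median ratio of WWTR1 to YAP1 was 0.453 on Day 12 against 0.154 on Day 10, that of TEAD4 to TEAD1 fell from 0.507 to 0.165 between Days 8 and 12, and that of LATS2 to LATS1 went from 0.360 on Day 8 to 0.813 on Day 10.

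Of the kinases, LATS2 rose, whereas the test of LATS1 varied with the fit. LATS2 had 9.03 to 12.6 CPM on Day 8 with a median of 10.5, 14.8 to 23.6 CPM on Day 10 with a median of 19.4, and 16.3 to 26.5 CPM on Day 12 with a median of 20.6. Every embryo of Days 10 and 12 was above every embryo of Day 8. LATS2 was the only one of the 10 genes without overlap between Days 8 and 10, against 22% of all genes tested. It rose 1.81-fold from Day 8 to 10 (log2 fold change 0.85 ± 0.09, edgeR FDR 1.6e-09) and 1.96-fold from Day 8 to 12 (0.97 ± 0.09, FDR 2.4e-11), under the 2-fold threshold of a DEG but with the smallest FDR of the 10 genes in both contrasts. From Day 10 to 12 its log2 fold change was 0.12 ± 0.09 (FDR 0.245). Both rises passed an FDR of 0.05 under all 42 other fits that tested for a change of any size. Neither passed in edgeR's test of a change beyond 2-fold. Without the Day 12 female d12_f_297 the rise from Day 8 to 12 was 1.01, past the DEG threshold.

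LATS1 had 25.0 to 41.6 CPM on Day 8 with a median of 28.5, 21.4 to 29.5 CPM on Day 10 with a median of 25.2, and 16.0 to 39.5 CPM on Day 12 with a median of 32.9. On Day 12 the embryos lay in separate ranges, with females d12_f_271, d12_f_245 and d12_f_289 at 16.0, 16.1 and 17.1 CPM and the other 7 between 30.002 and 39.5 CPM. Its log2 fold changes were -0.24 ± 0.15 from Day 8 to 10 (edgeR FDR 0.157), 0.22 ± 0.15 from Day 10 to 12 (FDR 0.185) and -0.02 ± 0.14 from Day 8 to 12 (FDR 0.915). The first passed an FDR of 0.05 with library size as the only scaling (-0.42, FDR 0.0196) and with only the 2 days in the fit (-0.24, FDR 0.0186). The second passed with the robust GLM (0.32, FDR 0.0215), with library size alone (0.42, FDR 0.0193), in males alone (0.51, FDR 0.0049) and without the 2 farthest embryos of each day (0.36, FDR 0.0095), and was -0.22 in females alone. The difference between Days 8 and 12 passed in females alone (-0.46, FDR 0.0449). The CPM ratio of LATS2 to LATS1 had a median of 0.360 on Day 8 (0.291 to 0.462), 0.813 on Day 10 (0.536 to 0.941) and 0.615 on Day 12 (0.542 to 1.66), and the Day 12 values above 1 were those of the females d12_f_245, d12_f_271 and d12_f_289. Days 8 and 10 did not overlap in this ratio.

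AMOTL2, a scaffold of the angiomotin family that is itself a YAP target, showed the largest change of the 10 genes between Days 8 and 10. It had 20.4 to 38.1 CPM on Day 8 with a median of 32.2, 36.7 to 155 CPM on Day 10 with a median of 78.6, and 31.0 to 111.2 CPM on Day 12 with a median of 61.1. Day 10 embryos other than female d10_f_433, with 36.7 CPM, and male d10_m_435, with 37.6 CPM, lay at 61.7 CPM or more, above every Day 8 embryo. AMOTL2 rose 2.76-fold from Day 8 to 10 (log2 fold change 1.46 ± 0.21, edgeR FDR 1.1e-06) and was 1.98-fold higher on Day 12 than on Day 8 (0.98 ± 0.21, FDR 1.2e-04). In males alone the first rise was 1.36 with an FDR above 0.001. The second passed the DEG threshold when any of 5 embryos was left out, the Day 8 female d08_f_105 and male d08_m_136 and the Day 12 female d12_f_245 and males d12_m_249 and d12_m_275, with at most 1.06. The fall from Day 10 to 12, -0.48 ± 0.21 with an edgeR FDR of 0.0487, passed in only 15 of 42 other fits. It did not pass in 22 of 30 fits that left out 1 embryo, of which the smallest fall was -0.35, without the Day 10 female d10_f_454. The fall was smaller and did not pass with library size as the only scaling (-0.25), in males alone (-0.29) or without the 2 farthest embryos of each day (-0.16, edgeR FDR 0.516). With only those 2 days in the fit it did not pass either (-0.51).

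The secreted targets differed from each other. CTGF (CCN2), a matricellular protein of the CCN family, had 1.52 to 5.57 CPM on Day 8 with a median of 2.08, 1.52 to 24.4 CPM on Day 10 with a median of 2.66, and 5.50 to 29.4 CPM on Day 12 with a median of 13.4. All Day 12 embryos but male d12_m_286, at 5.50 CPM, were above the highest Day 8 embryo. CTGF was 5.87-fold higher on Day 12 than on Day 8 (log2 fold change 2.55 ± 0.44, edgeR FDR 6.6e-06), the largest change of the 10 genes in any of the 3 contrasts. In males alone this rise was 2.36 with an FDR above 0.001.

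How the rise of CTGF divided between the 2 intervals depended on 1 embryo and on the fit. With all embryos, CTGF rose by 1.17 ± 0.43 on the log2 scale from Day 8 to 10 (edgeR FDR 0.022) and by 1.39 ± 0.42 from Day 10 to 12 (FDR 0.0055). Without the Day 10 male d10_m_435, which had 24.4 CPM, the first change was 0.48 and did not pass, while the second was 2.08 and passed the DEG threshold. Without male d10_m_435 and female d10_f_433 the changes were 0.19 and 2.37. The other 8 Day 10 embryos had 1.52 to 6.36 CPM. In males alone the second change was 0.95 (FDR 0.290), and in females alone it was 1.91 (FDR 8.6e-04), a difference between the sexes that did not pass (edgeR FDR 0.511). The first did not pass in either sex alone, nor with the robust GLM (0.43) or library size alone (1.03, FDR 0.0507). With the robust GLM and all embryos the second change was 2.18 (FDR 9.9e-12), past the DEG threshold.

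Markers of maternal endometrium were high together with CTGF in some embryos and not in others. On Day 10 the males d10_m_435 and d10_m_453 and the female d10_f_433, which had the 3 highest CTGF levels, also had the 3 highest sums of these markers, 8.58, 5.64 and 4.09 CPM, against at most 3.60 CPM in the other 7. On Day 8 the male d08_m_103 was highest in both, with 5.57 CPM of CTGF and a marker sum of 5.40 CPM. Female d08_f_129, second in CTGF on that day with 2.96 CPM, had the lowest sum, 1.06 CPM. On Day 12 the highest sum, 10.7 CPM, was that of female d12_f_245. The part of these markers in the CTGF levels was not tested.

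CYR61 (CCN1), of the same family, had 5.46 to 12.7 CPM on Day 8 with a median of 7.40, 5.57 to 19.9 CPM on Day 10 with a median of 8.29, and 6.37 to 29.98 CPM on Day 12 with a median of 9.27. The ranges overlapped on all days. Its log2 fold change was 0.26 ± 0.24 from Day 8 to 10 (edgeR FDR 0.369, 95% interval -0.24 to 0.76) and 0.31 ± 0.24 from Day 10 to 12 (FDR 0.283). From Day 8 to 12 it rose by 0.57 ± 0.24 (FDR 0.0368), which did not pass in 7 of 30 fits that left out 1 embryo and was 0.29 without the Day 12 male d12_m_307. It did not pass with the robust GLM (0.37), in either sex alone or without the 2 farthest embryos of each day (0.48) either. Those 7 embryos were the Day 8 females d08_f_105, d08_f_109 and d08_f_124 and males d08_m_103 and d08_m_133, and the Day 12 female d12_f_245 and male d12_m_307.

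**Figure D3:**
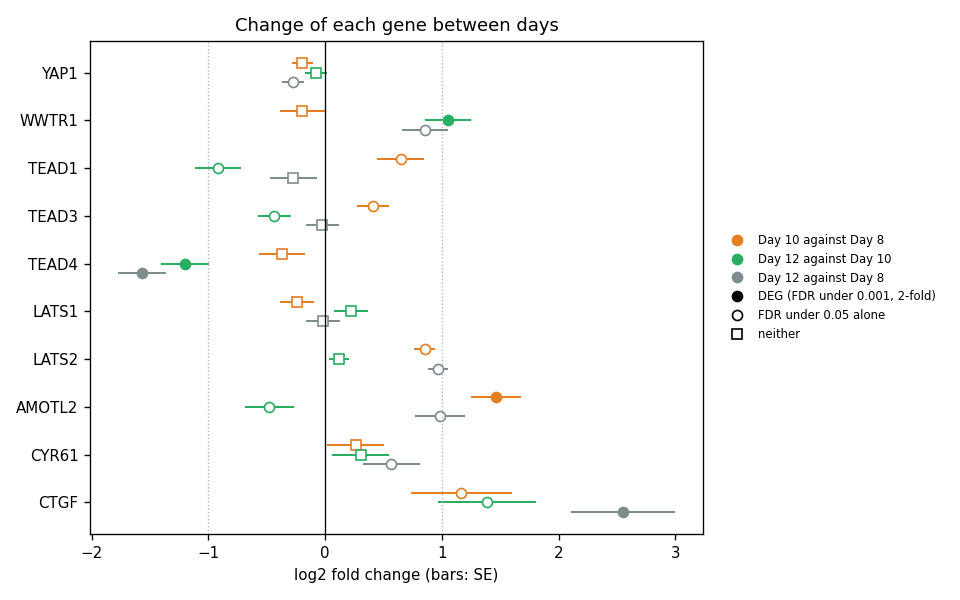
Log2 fold change of each gene in the 3 day contrasts, with bars of 1 SE and dotted lines at 2-fold. Filled circles are DEG, open circles passed an FDR of 0.05 alone and squares passed neither. AMOTL2 is the only DEG from Day 8 to 10 (1.46), WWTR1 (1.05) and TEAD4 (-1.20) are those from Day 10 to 12, and CTGF (2.55) and TEAD4 (-1.57) those from Day 8 to 12.

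Of 76 other genes of the pathway that were listed, 63 were among the genes tested. From Day 8 to 10, 7 of the 63 rose and 2 fell as DEG, against 9.88% and 4.2% of all genes in these directions. From Day 10 to 12, 14 rose and 7 fell, against 14.9% and 8.39%. Over the whole period 14 rose and 5 fell, against 22% and 10.4%. Their median log2 fold changes were 0.24, 0.13 and 0.38. The individual genes below are the DEG with the largest changes of each list, and PTPN14 is named in addition.

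The core kinase module (STK3, STK4, SAV1, MOB1A and MOB1B), which activates the LATS kinases, had no DEG among its 5 genes in any contrast. At an FDR under 0.05, 2, 1 and 3 of the 5 were higher in the 3 contrasts in the order above. None of 6 STRIPAK genes, whose phosphatase complex counters the module, was a DEG. At an FDR under 0.05, 3, 0 and 2 of them were higher and 0, 2 and 1 lower. Of all genes, 14.1%, 23.3% and 32.5% were DEG in the 3 contrasts. At an FDR under 0.05, 29.4%, 32.6% and 40.1% of all genes were higher and 26.7%, 27.1% and 33.3% lower. Of 5 turnover genes, BTRC, a ubiquitin ligase subunit that targets YAP1 for degradation, was the only DEG and fell by 1.18 from Day 8 to 12 (FDR 2.8e-12), from 65.1 to 89.1 CPM to 25.3 to 44.9 CPM.

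Upstream regulators held 12 measured genes of 14. MAP4K4, a kinase that can activate LATS in parallel to the core module, had a median of 267 CPM on Day 8, 551 CPM on Day 10 and 222 CPM on Day 12. It rose by 1.14 and then fell by 1.45 on the log2 scale (edgeR FDR 2.3e-09 and 6.3e-12). WWC3, a cytoplasmic LATS activator, rose by 1.06 from Day 10 to 12 (FDR 1.2e-10), and TAOK2, a kinase upstream of the module, also by 1.06 (FDR 2.0e-09). The TAOK2 change was 0.96 without the Day 12 male d12_m_276. FAT1, an atypical cadherin, rose by 1.01 (FDR 6.8e-04), a DEG in 18 of 30 fits that left out 1 embryo, and its change was 0.31 in females alone.

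The 14 junction and polarity genes were all measured, and they held the other angiomotins. AMOT had 217 to 404 CPM on Day 8, 40.4 to 93.7 CPM on Day 10 and 149 to 388 CPM on Day 12. It fell by 2.19 and then rose by 2.07 (edgeR FDR 5.2e-12 for both), the direction opposite to that of AMOTL2 in each interval. AMOTL1 rose by 1.44 from Day 10 to 12 (FDR 1.9e-05), with the Day 12 embryos spread from 5.10 to 54.7 CPM. The LIM proteins that can sequester LATS kinases also moved. WTIP rose from 0.891 to 2.59 CPM on Day 8 to 2.78 to 10.2 CPM on Day 10 (1.86, FDR 1.2e-08), and AJUBA from 0.999 to 2.16 CPM on Day 10 to 16.6 to 47.5 CPM on Day 12 (4.41, FDR 3.9e-18). Over the whole period the polarity genes LLGL1 and DLG1 went in opposite directions, by 1.11 and -1.29 (FDR 1.9e-11 and 5.8e-11).

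Cofactors of TEAD peaked on Day 10. VGLL3 had a median of 14.5 CPM on Day 8, 185 CPM on Day 10 and 55.1 CPM on Day 12, and VGLL1, which binds TEAD in place of YAP1, had 34.3, 122 and 42.7 CPM. VGLL3 rose by 4.09 and fell by 1.91 (edgeR FDR 3.3e-12 and 7.8e-07), and VGLL1 rose by 1.77 and fell by 1.63 (FDR 2.5e-09 and 5.3e-09). TEAD2, the remaining TEAD gene, was low on Day 8 with 2.71 to 7.18 CPM and fell by 2.41 from Day 10 to 12 (FDR 2.5e-08), to 0.145 to 1.73 CPM. Of the measured TEAD genes, TEAD2 and TEAD4 thus fell as DEG from Day 10 to 12.

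Other CCN genes were near the floor of 3 counts. NOV (CCN3) was at 3 counts or fewer in 9 Day 8 and 8 Day 10 embryos and had up to 3.83 CPM on Day 12, a DEG (edgeR FDR 2.5e-06). WISP2 (CCN5) was at or under that floor in 9 of 10 Day 8 embryos and had up to 1.70 CPM on Day 10, also a DEG (FDR 1.6e-04). No fold is given for either.

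Of 18 further genes of a general YAP target signature, 12 were measured. From Day 10 to 12, 6 rose as DEG and 1 fell, against 14.9% and 8.39% of all genes. Their median log2 fold change was 1.12 beside 0.04 for all genes. From Day 8 to 10 the count was 2 and 1, against 9.88% and 4.2%, with a median of 0.35 beside 0.03. DOCK5, a guanine nucleotide exchange factor, rose by 1.91 from Day 10 to 12 (edgeR FDR 1.1e-08), from 14.4 to 43.2 CPM to 37.2 to 168 CPM. GADD45B, a stress-response gene, rose by 2.75 (FDR 4.1e-08) and the growth factor gene TGFB2 by 2.10 (FDR 6.9e-06), both from levels near 1 CPM or lower. AXL, a receptor tyrosine kinase, was at or under 3 counts in 8 Day 8 embryos and reached medians of 0.65 CPM on Day 10 and 2.04 CPM on Day 12. It was a DEG in both intervals (FDR 2.9e-05 and 6.5e-04), the second in 17 of 30 fits that left out 1 embryo. F3, tissue factor, moved down and then up, by -1.17 (FDR 9.7e-04) and 1.60 (FDR 2.0e-05), and the first held as a DEG in 10 of 30 such fits. MYOF, a membrane repair gene, rose by 1.38 from Day 8 to 10 (FDR 6.3e-07).

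Genes that TEAD4 or YAP1 control in the mouse blastocyst went different ways from Day 10 to 12. CDX2 fell by 1.42 (edgeR FDR 1.0e-08), from 196 to 256 CPM to 45.3 to 186 CPM, while GATA3 rose by 1.23 (FDR 1.8e-08), from 93.1 to 144 CPM to 169 to 463 CPM. SOX2 had 0.228 to 0.772 CPM on Day 10 and was at or under 3 counts in all 10 Day 12 embryos, at least 1.05-fold lower against a floor of 0.434 CPM in the smallest library.

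Within Day 10, 4 embryos that were picked after their values were seen stood at the ends of several of these genes. Female d10_f_433 and male d10_m_435 had the 2 lowest AMOTL2 levels (36.7 and 37.6 CPM), the 2 lowest CYR61 levels (6.18 and 5.57 CPM), the 2 lowest LATS2 levels (14.8 and 17.0 CPM) and the 2 highest CTGF levels (8.54 and 24.4 CPM). Female d10_f_454 and male d10_m_453 had the 2 highest levels of AMOTL2 (155 and 126 CPM), of CYR61 (19.9 and 12.6 CPM) and of WWTR1 (47.6 and 40.4 CPM). CTGF in the latter pair was 3.60 and 6.36 CPM. These were the fourth and the third highest CTGF levels of the day.

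Other genes separated the same embryos. MAP4K4 was lowest in female d10_f_433 and male d10_m_435 (389.9 and 409 CPM) and highest in female d10_f_454 and male d10_m_453 (866 and 819 CPM), and VGLL3 had 88.9 and 114 CPM in the first pair and 390.01 and 461 CPM in the second. HAND1, a transcription factor of extraembryonic mesoderm and trophoblast, had 27.8 and 22.7 CPM in the first pair and 175 and 166 CPM in the second, against 46.1 to 78.1 CPM in the other 6. The summed trophectoderm markers of the 4 embryos ran from 36269 to 41226 CPM, below the 45613 to 53794 CPM of the other 6. The part of any of these in the levels of the 10 genes was not tested.

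Relations between members were examined within each day for 4 pairs, 12 relations in all, over 10 embryos that may include littermates. The permutations took no account of the 2 runs of label numbers on Day 10. On Day 10, CYR61 and AMOTL2 moved together (Pearson r = 0.83, permutation p = 0.0024, adjusted p = 0.0293, and Spearman rho = 0.83, permutation p = 0.0050, adjusted p = 0.0299). Without the 2 embryos farthest from the median of CYR61, r was 0.82. With library size as the only scaling r was 0.78 and did not pass after adjustment. YAP1 and WWTR1 on Day 10 had r = 0.77 (permutation p = 0.0086, adjusted p = 0.0516) and rho = 0.84 (permutation p = 0.0036, adjusted p = 0.0299). Its r was 0.63 without female d10_f_317 and male d10_m_453, the embryos farthest from the median of YAP1, and 0.86 without female d10_f_454 and male d10_m_453. CTGF and AMOTL2 on Day 10 had r = -0.52 (permutation p = 0.123, adjusted p = 0.369) and rho = -0.25 (permutation p = 0.493, adjusted p = 0.951), and r was 0.56 without female d10_f_433 and male d10_m_435 and -0.80 without female d10_f_454 and male d10_m_453. CTGF and CYR61 on that day had r = -0.25 (permutation p = 0.475, adjusted p = 0.633) and rho = -0.07 (permutation p = 0.866, adjusted p = 1), with r = 0.70 and -0.85 without the first and the second of these pairs. The CTGF and CYR61 relation on Day 12 had r = 0.70 (permutation p = 0.0208, adjusted p = 0.083) and rho = 0.58 (permutation p = 0.0885, adjusted p = 0.354), and r was 0.25 without males d12_m_307 and d12_m_286. The remaining 7 did not pass.

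**Figure D4:**
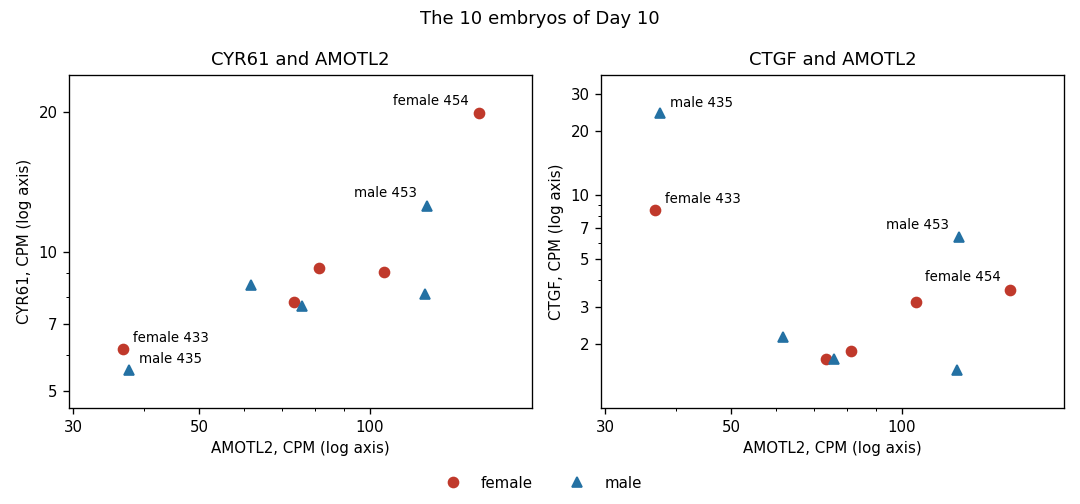
CYR61 (left) and CTGF (right) against AMOTL2 in the 10 embryos of Day 10, in CPM on log axes, with female embryos as circles and male embryos as triangles. CYR61 and AMOTL2 have r = 0.83 on the log2 scale, while the 2 embryos with the lowest AMOTL2, female d10_f_433 and male d10_m_435, have the highest CTGF, 8.54 and 24.4 CPM.

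Female and male embryos did not differ past the threshold in any of the 10 genes on any day. In edgeR's quasi-likelihood test on each day's table, 0 of 10 genes passed an FDR of 0.05 on Day 8, 10 or 12, and the same count was found with the robust GLM and with DESeq2, against 0.658%, 0.223% and 0.123% of all genes in edgeR's quasi-likelihood test. At an unadjusted p under 0.05 the counts were 1, 0 and 1. The gene on Day 8 was WWTR1, lower in females by 0.32 ± 0.13 on the log2 scale (FDR 0.832). Differences on Day 8 ran from -0.32 to 0.05 in log2 fold change of female over male. On Day 10 they ran from -0.94 ± 0.80 for CTGF to 0.29 for CYR61. Without male d10_m_435 the CTGF difference was 0.35, and without female d10_f_454 that of CYR61 was -0.09.

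On Day 12, LATS1 was the gene at an unadjusted p under 0.05. Its 5 female embryos had 16.0, 16.1, 17.1, 30.002 and 33.4 CPM, and its 5 male embryos 32.3, 34.9, 35.2, 39.2 and 39.5 CPM. The groups overlapped only through female d12_f_299, and the difference was -0.66 ± 0.22 (edgeR FDR 0.198). TEAD1 had 28.9, 32.3, 66.1, 84.5 and 85.1 CPM in females and 53.2, 88.0, 92.6, 100.3 and 167 CPM in males (-0.74 ± 0.36, FDR 0.239). In 1 fit of all 30 embryos, in which the days share an estimate of the spread, both passed, at -0.68 with an FDR of 0.0125 and at -0.75 with an FDR of 0.0402, as did 2658 of 13103 genes. Over all fits of the day's own table, with 1 embryo left out or with other settings, the FDR stayed above 0.05 for both genes. The difference between sexes was not shown to change with day for any of the 10 genes, since 0 of 13103 genes passed in edgeR's quasi-likelihood test of the 3 interactions, with 100, 2473 and 2863 at an unadjusted p under 0.05 and up to 2.18% of genes passing in DESeq2, none of them among the 10. LATS1 and TEAD1 were the genes of the 10 at an unadjusted p under 0.05 in the interactions with Day 12. The LATS1 interaction was -0.65 against Day 10 and -0.62 against Day 8 (edgeR FDR 0.199 and 0.155), and that of TEAD1 -0.91 and -0.75 (FDR 0.208 and 0.225).

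Genes with the most similar course were sought among 9553 genes with a mean of at least 5 CPM, as the smallest root mean square difference of centred log2 CPM over the 30 embryos. TEAD3 was nearest to PTPRF (0.14), LATS2 to FXR2 (0.15) and LATS1 to PDS5B (0.16). YAP1 was nearest to CNN3 (0.17), a calponin of the actin cytoskeleton, and next to PAK1 and UBE2Q1. TEAD1 was nearest to NHLRC2 (0.27), WWTR1 to TMEM65 (0.30) and TEAD4 to RBPMS2 (0.32). AMOTL2 was nearest to PRELID2, TJP3, a tight junction protein gene, and NTN1 (0.34, 0.34 and 0.35), and CYR61 to NUAK2 (0.38). CTGF was nearest to BCAT1 (0.73), beside an SD of CTGF itself of 1.35 over the 30 embryos. A gene that varies little has small differences to many genes, so these values are not comparable between the 10 genes.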

How the data were processed

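The deposited tables hold raw read counts per NCBI gene identifier, which the authors made from stranded mRNA libraries by read trimming, mapping to Sscrofa11.1 and a filter on low CPM. Which aligner and counter were used, and the filter's value, are not given in the sources used here. The table of all embryos was used between days, and the table of each day between sexes. Identifiers were matched to symbols in the RefSeq gene table of the same assembly, all 13103 of them. The 10 genes lie on chromosomes 1 (LATS1, CTGF), 2 (TEAD1), 4 (CYR61), 5 (TEAD4), 7 (TEAD3), 9 (YAP1), 11 (LATS2) and 13 (WWTR1, AMOTL2).

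Counts were tested with R 4.3.3 and edgeR 4.0.16 (TMM factors, robust quasi-likelihood F test, Benjamini-Hochberg adjustment over all genes of a table), with 3 day groups in 1 fit of 30 embryos, and 6 groups of day and sex for interactions. The SE is the log2 fold change over the square root of F. Log2 levels used a prior count of 2. Relations used Pearson r and Spearman rho with two-sided permutation tests of 100000 resamples (scipy 1.17.1), adjusted over 12 relations. Scripts were tested on simulated data. Alternatives were other tools (robust GLM, DESeq2 1.42.0), other scaling (RLE factors, library size alone), stricter filters (10 counts in at least 5 embryos, or 1 CPM on average), a sex covariate, separate fits per pair of days or per sex, edgeR's test of a change beyond 2-fold, and each embryo left out. Fits without the 2 farthest embryos of each day or without the Day 10 female d10_f_433 and male d10_m_435 were chosen after seeing the data.

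The 10 genes, the other lists and the tests were chosen with earlier results of these data known. All 10 genes are given in every comparison. Of each other list, up to 4 DEG per contrast with the largest change are named, and for each of the 10 genes the 3 of most similar course were determined. PTPN14 and the second change of F3 are given beyond this rule.

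Precision is set by 5 embryos per day and sex and by 6068212 to 34002508 counts per embryo. Embryos are treated as replicates, and p-values measure the spread between embryos, some of which share a litter. The floor of 3 counts covers counting error only.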

Additional observations from a re-analysis of the deposited data

Results flagged for a closer look

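Among 90 groups of 10 embryos of a day, or of 5 embryos of a day and sex, 9 had an embryo whose gap to the next was larger than Dixon's 95% critical value. Chance marks about 1 in 20 groups. Gaps were taken in log2 CPM, and gaps in CPM itself, the unit of the levels below, were not tested. The Day 12 female d12_f_245, the smallest library, was low in YAP1 (74.8 CPM) and AMOTL2 (31.0 CPM) among the females and in TEAD3 (23.0 CPM) among all embryos of the day. The Day 8 male d08_m_103 was high in TEAD1 (125 CPM) and in CTGF (5.57 CPM), the latter both among all embryos and among the males. On Day 10, WWTR1 was high in female d10_f_454 (47.6 CPM) and LATS2 low in female d10_f_433 (14.8 CPM), each among the females. AMOTL2 was low in the Day 8 female d08_f_109 (20.4 CPM).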

How the results depend on the processing

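With library size alone the median log2 fold change of all genes moved from 0.03 to -0.15 between Days 8 and 10 and from 0.04 to 0.24 between Days 10 and 12, and the DEG split from 1295 higher and 550 lower to 1027 and 811, and from 1951 and 1099 to 2396 and 891. The DEG counts of 1845, 3050 and 4255 in the 3 contrasts were 675, 1574 and 2403 when the change was tested for exceeding 2-fold. Between Days 8 and 10 they were 977 in females and 1067 in males alone, with 4795 genes in females at an FDR under 0.05 against 7353, and between Days 10 and 12 they were 2003 in males. Between the sexes, 0.658%, 0.223% and 0.123% of genes on Days 8, 10 and 12 became 1.37%, 0.360% and 0.827% with the robust GLM, 1.13%, 0.454% and 1.37% with DESeq2 and, on Days 8 and 12, 0.275% and 20.3% in 1 fit, and leaving out 1 embryo gave 0.386% to 0.614% on Day 8 and 0.111% to 0.197% on Day 10. DESeq2 called 0.0076% and 2.18% of genes for interactions from Day 8 to 10 and from Day 8 to 12, against 0. The relation of CYR61 and AMOTL2 on Day 10 had r = 0.78 with library size alone and no longer passed.

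Where a member passed an FDR of 0.05 in a day contrast, its change in that contrast kept its direction under every alternative. Among changes between days that did not pass, CYR61 from Day 8 to 10 turned to -0.0049 in males and -0.049 without the 2 farthest embryos of each day. From Day 10 to 12 it turned to -0.014 in females. YAP1 from Day 10 to 12 turned to 0.11 with library size alone and 0.0051 without the farthest embryos, LATS1 to -0.22 in females. From Day 8 to 12, TEAD1 turned to 0.057 in males, TEAD3 to 0.071 in males and 0.15 without the farthest embryos, and LATS1 to 0.10 with the robust GLM, 0.25 in males and 0.19 without the farthest embryos. Leaving out 1 embryo gave -0.099 to 0.064 for TEAD3 and -0.074 to 0.053 for LATS1 in that contrast, and between the sexes of Day 10 -0.086 to 0.48 for CYR61 and -1.49 to 0.35 for CTGF. The cause was not tested.

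No paired analysis was possible because the numbers in the labels name embryos and do not recur between groups. Levels near the floor of 3 counts limit the statements on NOV, WISP2, AXL and SOX2. Transcript lengths were not used, so levels of different genes were not ranked.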
